A study of Mus musculus with 22 samples.

Results

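The 37 genes described here belong to the unfolded protein response and the integrated stress response of the mouse, and they were measured in purified cerebellar granule cells. They were chosen by symbol, and each was represented by the probe set with the highest mean log2 signal over 22 Affymetrix 430 2.0 arrays. All 37 passed the filter on dim probe sets and are among the 10771 genes tested. They were split by role into an ATF4 branch of 16 genes, of which 7 are transcription factors and feedback genes and 9 supply amino acids, and an endoplasmic reticulum (ER) branch of 21 genes, of which 4 are sensors and transcription factors, 13 are chaperones and folding enzymes and 4 serve degradation.

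When unfolded proteins build up in the ER, the kinase PERK (Eif2ak3) slows translation and favours that of ATF4, a transcription factor that induces genes for amino acid synthesis and uptake, while IRE1 (Ern1, acting through Xbp1) and ATF6 induce chaperones and the degradation machinery. Other kinases that sense amino acid or heme shortage also lead to ATF4, so its targets can move apart from the chaperones. ATF4 is regulated mainly at translation and XBP1 by splicing of its mRNA, and a 3′ expression array measures neither.

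All cells came from postnatal day 7 (P7) pups, labelled strain C56Bl6/J and named C57BL/6N in the methods, whose sex was not discriminated per the methods, and were enriched on Percoll gradients. The Chd7 control group (4 arrays, labelled wild type, Chd7 f/f in the methods) was compared with the Chd7 mutant group (4 arrays), in which Atoh1-Cre deleted both copies of Chd7, a chromatin remodeller, in the granule cell lineage from which these cells derive. Both Chd7 groups are titled CGNs, which the paper describes as postmitotic granule neurons obtained in culture, and not as freshly isolated progenitors. Cultures given ICRF-193, an inhibitor of type II topoisomerases, at 10 µM for 12 h (4 arrays) were compared with cultures given DMSO (4 arrays). Cultures with Smo2 (3 arrays) were compared with cultures without it (3 arrays); the labels do not say what Smo2 is and give no dose or time, and the methods describe culture with and without a Smoothened agonist. The study describes the cells of the ICRF-193 experiment as wild type, and for the Smo2 cultures the labels give no genotype. Arrays are labelled biological replicates, and nothing used here says how many pups or cultures they stand for, so the p-values measure the spread between arrays, part of which may be technical.

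The targeted gene was checked first. Of the 2 bright probe sets of Chd7, the dimmer one read 11.27 to 11.72 on the 4 control arrays and 8.99 to 9.98 on the 4 mutant arrays (log2 difference -2.03). The brighter one read 11.74 to 12.01 and 11.37 to 11.86 and was not called. Both probe sets were called lower with ICRF-193 (-1.35 and -1.28) and with Smo2 (-0.72 and -0.67), so a lower Chd7 signal was not confined to the mutant. Of 10 granule neuron markers 9 passed the filter, and their summed linear signal was 85130 to 133874 over the arrays. Of 6 endothelial markers 1 passed. Within the Chd7 groups, arrays of replicates 1 and 2, and of replicates 3 and 4, were closer to each other (SD of the difference over genes 0.21 to 0.23) than arrays across these sets (0.32 to 0.46), and the ICRF-193 experiment was split in the same way (0.28 to 0.31 against 0.37 to 0.42). Summed astrocyte markers followed the sets: 8580 and 8840 in control replicates 1 and 2, 18600 and 19500 in control replicates 3 and 4, 11100 on both mutant replicates 1 and 2, and 37600 and 37700 in mutant replicates 3 and 4. The mean log2 signal of 3 Y-linked genes was 8.38 to 9.03 on the control arrays and 4.00 to 6.95 on the mutant arrays, so these groups differed in the share of RNA from male pups. Differences within the sets are therefore given for the genes that the Chd7 and ICRF-193 results turn on, and the part of glial cells or of sex in any result was not tested.

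The 2 branches also differed in how often short DNA motifs stood in front of their genes, though many of the genes held no match. Promoters, taken from RefSeq (GRCm38.p6) as the 250 bases before and 50 bases after a start site, were matched for 34 of the 37 genes (all but Slc7a5, Atf6 and Manf), and 2 of these had more than 1. Both strands were searched, and no match overlapped another in these genes. The ER stress response element (ERSE, CCAAT and CCACG with 9 bases between) was found in 7 of 12 chaperone promoters, those of Hspa5, Hsp90b1 (2 copies), Calr, Canx, Pdia6, Dnajc3 and Creld2, and in that of Syvn1, and in 0 of 15 promoters of the ATF4 branch. Over all 27025 genes with a promoter it was found in 37 (0.137%). The core of the C/EBP-ATF response element, TGATGNAA, was found in 5 of 15 ATF4 branch promoters (Atf3, Trib3, Chac1, Asns and Slc7a11) and in 1 of 19 ER branch promoters (Herpud1), against 4.51% of all genes. ERSE-II was found for Dnajb11 and Herpud1 (0.0444% of all genes) and the unfolded protein response element TGACGTG for Hspa5 (2.22% of all genes). The promoters of Phgdh, Psat1, Shmt2 and Mthfd2, enzymes of the serine and folate route, held no match to any of these motifs. The 170 bases before the start are shown for 3 chaperone genes with an ERSE, for 2 genes with the ATF4 core and for Phgdh, which had neither; motif matches are in capitals, and in Hspa5 the first run of capitals is TGACGTG.
Hspa5 (chr2:34771920-34772089, + strand): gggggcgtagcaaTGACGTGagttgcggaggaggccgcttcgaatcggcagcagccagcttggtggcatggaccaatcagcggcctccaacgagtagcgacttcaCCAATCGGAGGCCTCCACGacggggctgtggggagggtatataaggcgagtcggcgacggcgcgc
Pdia6 (chr12:17266419-17266588, + strand): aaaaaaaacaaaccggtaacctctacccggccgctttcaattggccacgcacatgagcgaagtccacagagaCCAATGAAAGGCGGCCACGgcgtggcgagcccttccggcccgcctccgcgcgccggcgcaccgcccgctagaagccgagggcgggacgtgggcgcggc
Dnajc3 (chr14:118937762-118937931, + strand): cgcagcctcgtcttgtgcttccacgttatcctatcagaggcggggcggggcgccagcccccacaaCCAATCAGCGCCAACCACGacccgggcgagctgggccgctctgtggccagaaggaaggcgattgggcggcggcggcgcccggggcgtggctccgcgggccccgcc
Asns (chr6:7693210-7693379, - strand): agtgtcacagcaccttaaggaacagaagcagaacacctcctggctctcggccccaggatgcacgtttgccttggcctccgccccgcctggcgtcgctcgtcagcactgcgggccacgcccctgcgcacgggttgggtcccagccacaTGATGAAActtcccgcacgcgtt
Slc7a11 (chr3:50443614-50443783, - strand): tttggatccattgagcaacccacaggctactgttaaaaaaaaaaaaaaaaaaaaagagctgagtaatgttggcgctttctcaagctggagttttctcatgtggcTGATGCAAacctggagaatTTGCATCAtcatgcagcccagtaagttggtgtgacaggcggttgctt
Phgdh (chr3:98339970-98340139, - strand): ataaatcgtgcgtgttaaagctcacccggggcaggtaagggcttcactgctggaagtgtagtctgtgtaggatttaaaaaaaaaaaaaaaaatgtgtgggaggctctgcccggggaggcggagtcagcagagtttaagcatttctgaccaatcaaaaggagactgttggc
In Hspa5 the ERSE began 65 bases before the start, in Pdia6 98 and in Dnajc3 105. The core in Asns began 23 bases before the start, and Slc7a11 had 2, at 66 on the same strand and at 47 on the opposite strand. A match of letters is a description of the window and not a binding site.

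With Smo2 the stress genes split by role: genes of amino acid supply rose most, most ER chaperones rose less, Ddit3, Xbp1 and part of the degradation machinery fell, and whether Atf4 mRNA passed depended on the processing. Of the 37 genes 23 rose and 7 fell, where 29.7% of all genes rose and 39% fell, 68.6% in all (limma, Benjamini-Hochberg adjusted p under 0.05 over 10771 genes, 3 arrays against 3). The median log2 difference was 1.04 in the ATF4 branch and 0.34 in the ER branch, and -0.095 over all genes. In these bulk samples fewer cells of a type and less RNA per cell cannot be told apart. Groups did not overlap for 73.5% of all genes in this comparison. With array medians set equal in place of quantile normalization the median over all genes moved to 0.048, and the share of called genes that were higher moved from 43.2% to 55.7%.

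**Figure D1:**
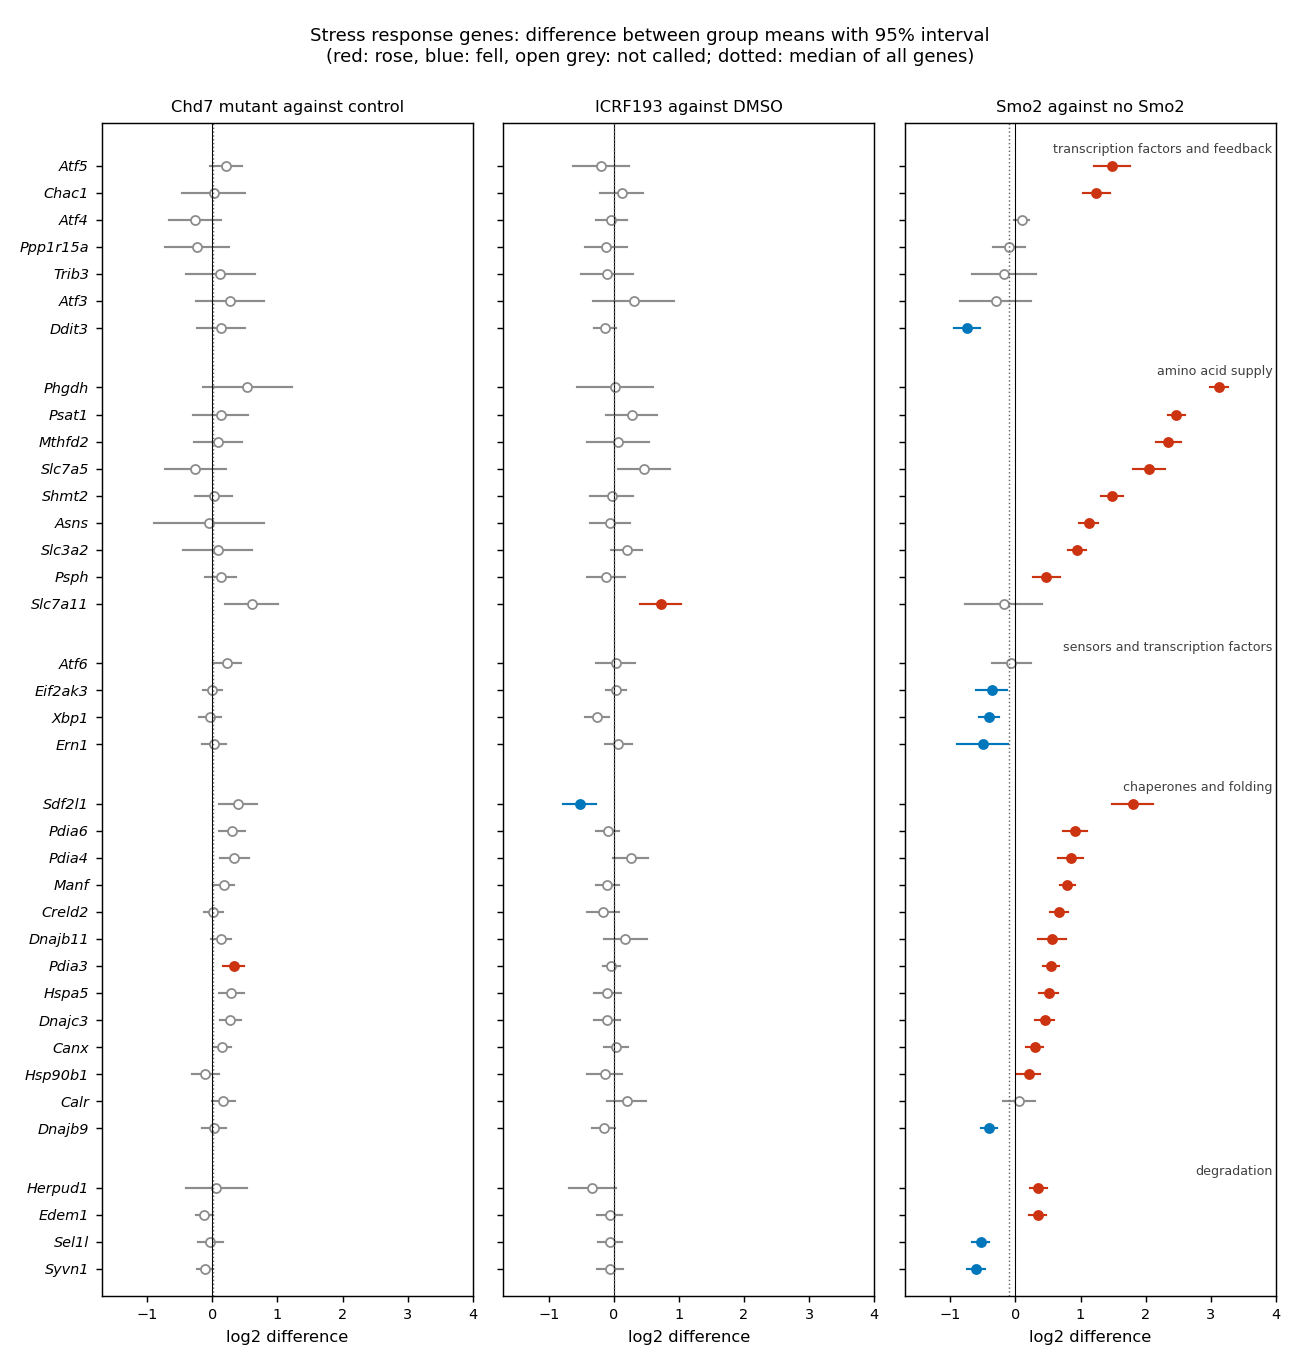
Log2 difference between group means (x axis) with its 95% interval for each of the 37 genes (rows, grouped by role) in the 3 comparisons (panels). Filled red points rose, filled blue points fell, open grey points were not called, and the dotted line is the median of all genes tested. In the right panel Phgdh stands at 3.13 and Ddit3 at -0.75, while in the other panels 1 gene rose in each and 1 fell with ICRF-193.

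The enzymes that make serine from glycolysis led the list. Phgdh, the first and committed enzyme of serine synthesis, read 9.44, 9.55 and 9.56 on log2 signal without Smo2 and 12.69, 12.64 and 12.62 with it. The difference was 3.13 (SE 0.058, 8.76-fold, adjusted p 1.12e-06), the 74th highest of all genes tested, and its 4 bright probe sets differed by 1.83 to 3.26 and were each called. Psat1, which catalyses the next step, read 10.72, 10.78 and 10.75 without Smo2 and 13.22, 13.16 and 13.27 with it (2.47, SE 0.054, 5.53-fold, adjusted p 1.49e-06). Psph, the last enzyme of the route, rose by far less, from 8.77, 9.08 and 8.92 to 9.43, 9.43 and 9.34 (0.48, SE 0.088, adjusted p 0.00334). The arrays of the 2 groups did not overlap for any of these 3 genes.

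The mitochondrial folate enzymes that take carbon units from serine also rose. Mthfd2 read 8.16, 8.04 and 8.31 without Smo2 and 10.56, 10.46 and 10.53 with it (2.35, SE 0.080, 5.09-fold). Shmt2, which turns serine into glycine, read 9.52, 9.70 and 9.56 and then 11.10, 11.00 and 11.12 (1.48, SE 0.069, 2.79-fold), although its dimmest probe set, at 0.49, was not called. Asns, asparagine synthetase and a long-used readout of ATF4, read 10.93, 10.97 and 11.05 and then 12.12, 12.05 and 12.15 (1.12, SE 0.060, 2.18-fold). These 3 genes had an adjusted p of at most 1.83e-05, with no overlap between groups.

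Both chains of the large neutral amino acid exchanger rose. Slc7a5, its transport chain (LAT1), read 9.77, 9.53 and 9.81 without Smo2 and 11.67, 11.71 and 11.90 with it (2.06, SE 0.10, 4.16-fold, adjusted p 1.34e-05). Slc3a2, the heavy chain that pairs with it, read 10.94, 10.99 and 10.96 and then 11.86, 11.89 and 11.99 (0.95, SE 0.056, 1.93-fold). Slc7a11, the cystine importer that pairs with the same heavy chain, was dim in this experiment, at 5.71, 4.89 and 4.85 without and 5.10, 5.04 and 4.77 with Smo2. Its difference of -0.18 was not called, while its other probe set fell by 1.36 on the log2 scale (adjusted p 0.0189). Slc7a11 passed the filter through the other 2 experiments, where its arrays read 7.09 to 8.79. In all, 8 of the 9 genes of amino acid supply rose and none fell, with a median difference of 1.48.

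The transcription factors and feedback genes of the branch did not move together. Atf5, a relative of ATF4 that is itself translated under stress, rose from 8.01, 8.08 and 8.0 to 9.33, 9.45 and 9.76 (1.49, SE 0.12, 2.80-fold, adjusted p 7.67e-05). Chac1, which degrades glutathione, rose from 7.38, 7.15 and 7.37 to 8.49, 8.51 and 8.63 (1.24, SE 0.084, 2.37-fold, adjusted p 4.35e-05). Ddit3 (CHOP), the factor tied to cell death under prolonged stress, fell from 9.28, 9.45 and 9.35 to 8.75, 8.53 and 8.56 (-0.75, SE 0.081, adjusted p 0.000324), and its second bright probe set fell too (-0.25). Atf4 read 12.57, 12.51 and 12.56 without Smo2 and 12.62, 12.66 and 12.65 with it. These arrays do not overlap, but the difference of 0.096 (SE 0.048, 95% interval -0.022 to 0.21) did not pass (adjusted p 0.124). It passed as higher with array medians set equal (0.36, adjusted p 0.00142), on the deposited scale (0.18, 0.0189), with an intensity trend in the variance (0.0373) and by the methods' t-test after Benjamini-Hochberg adjustment (0.0214). Atf3, Trib3, a pseudokinase that restrains the response, and Ppp1r15a (GADD34), which restores translation, had differences of -0.31, -0.18 and -0.10 and were not called, so that 2 of these 7 genes rose and 1 fell. With replicate number as a block Atf3 passed (adjusted p 0.0194).

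**Figure D2:**
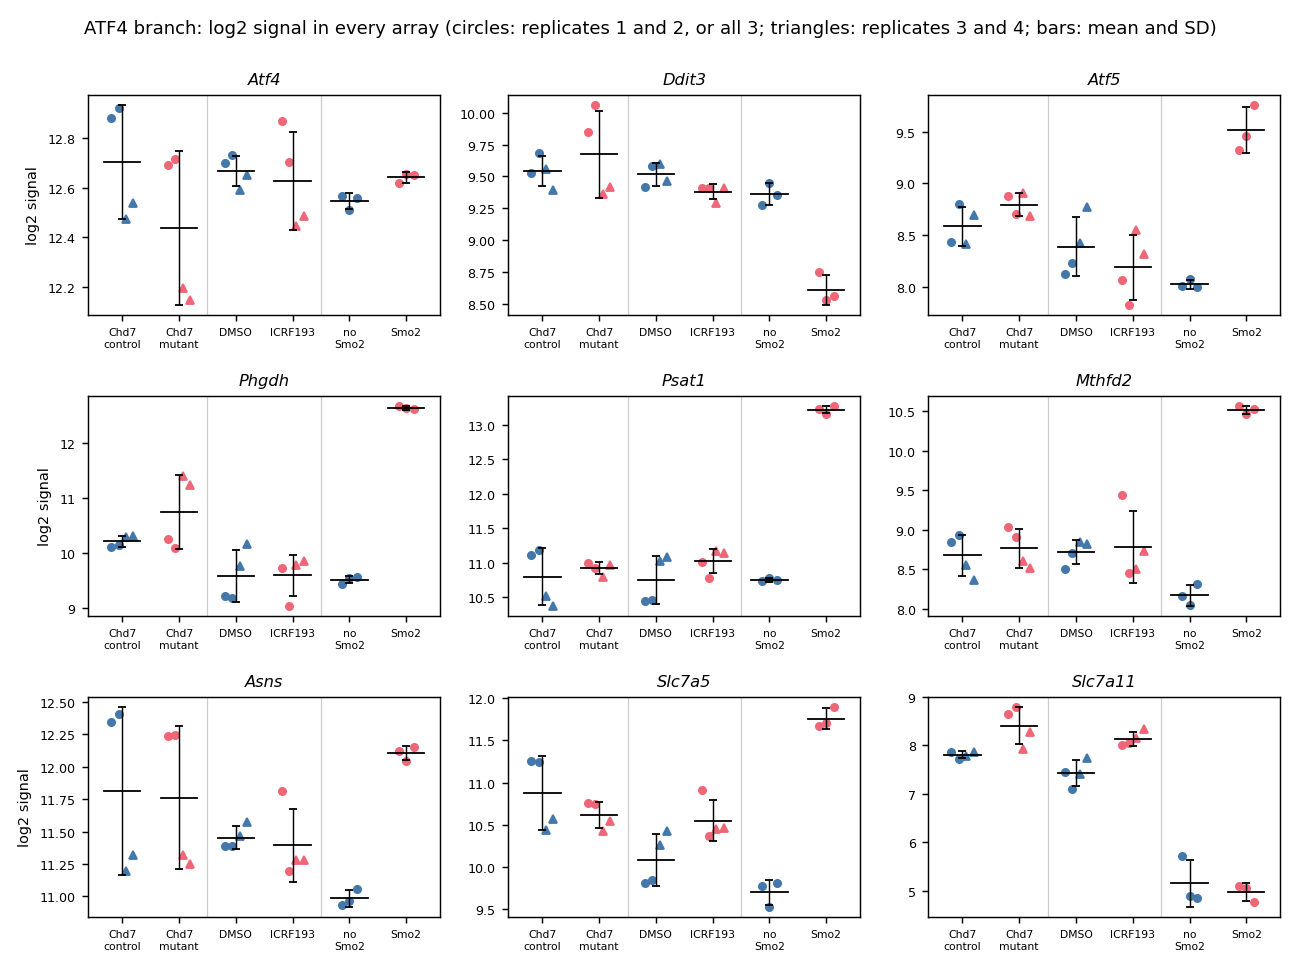
Log2 signal (y axis, scaled separately for each gene) of 9 ATF4 branch genes on each of the 22 arrays, by group; circles are replicates 1 and 2, or all 3 arrays in the Smo2 experiment, triangles are replicates 3 and 4, and bars give the mean and SD. The Smo2 arrays stand apart for Phgdh, Psat1, Mthfd2 and Slc7a5, while Asns in both Chd7 groups splits by set (12.23 to 12.41 against 11.19 to 11.32).

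In the ER branch 11 of the 13 chaperones and folding enzymes rose with Smo2, 1 fell and 1 was not called, with a median difference of 0.55. Sdf2l1, a small luminal cofactor of the chaperone BiP, rose most, from 8.09, 8.25 and 7.76 to 9.90, 9.82 and 9.77 (1.80, SE 0.13, 3.48-fold, adjusted p 5.55e-05). Hspa5, BiP itself, rose from 12.47, 12.43 and 12.57 to 13.05, 13.00 and 12.95 (0.51, SE 0.061, 1.42-fold, adjusted p 0.000488), and its 3 bright probe sets were each called. Among the protein disulfide isomerases Pdia6 rose by 0.91 (11.08, 10.84 and 10.99 to 11.89, 11.83 and 11.94), Pdia4 by 0.85 (9.25, 9.43 and 9.44 to 10.25, 10.12 and 10.30) and Pdia3 by 0.55 (12.10, 12.17 and 12.13 to 12.65, 12.73 and 12.68). For Pdia3 the dim second probe set (-0.17) was not called, and the mean of both (0.19, adjusted p 0.0618) did not pass. No array of one group reached into the other for these 5 genes.

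The other risers of the class were Manf, a secreted factor of the stressed ER (0.80, from 11.36, 11.41 and 11.39 to 12.19, 12.17 and 12.18), Creld2, a secreted stress-induced protein (0.67, from 9.19, 9.11 and 9.14 to 9.88, 9.84 and 9.75), and the BiP co-chaperones Dnajb11 (0.57, from 9.72, 9.94 and 9.62 to 10.32, 10.33 and 10.32) and Dnajc3 (0.45, from 10.08, 9.93 and 10.06 to 10.44, 10.46 and 10.51). The 5 bright probe sets of Dnajc3 all rose. The abundant lectin and HSP90 chaperones differed least. Canx, calnexin, rose by 0.30 (12.69, 12.69 and 12.63 to 12.91, 12.96 and 13.03). Hsp90b1, GRP94, rose by 0.20 (12.86, 12.97 and 12.81 to 13.07, 13.17 and 12.99), with an adjusted p of 0.0467 that was lost on leaving out Smo2 replicate 1 or 2 or replicate 1 or 3 without Smo2 (0.0999 to 0.134). The Hsp90b1 call was also lost without the filter (0.0799), with all 22 arrays in 1 fit (0.124) and by the methods' t-test after Benjamini-Hochberg adjustment (0.0703). Of its 2 bright probe sets, at 0.20 and 0.36, 1 was called. Calr, calreticulin, differed by 0.056 on the probe set that stands for it and was not called, while its other 2 bright probe sets rose by 0.18 and 0.20 and it passed with array medians set equal (0.30, adjusted p 0.0390). Dnajb9, a co-chaperone that is a sensitive target of IRE1 and XBP1, went the other way, from 10.88, 10.82 and 10.81 to 10.41, 10.47 and 10.41 (-0.41, SE 0.051, adjusted p 0.000561), with no overlap.

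The sensors and Xbp1, the transcription factor made active by IRE1, fell or were not called. Xbp1 fell from 12.35, 12.46 and 12.40 to 11.91, 12.03 and 12.04 (-0.41, SE 0.062, adjusted p 0.00140), on 3 of its 4 bright probe sets. Ern1, IRE1, fell from 8.70, 9.07 and 9.30 to 8.69, 8.44 and 8.43 (-0.50, adjusted p 0.0317), and Eif2ak3, PERK, from 9.97, 10.26 and 10.21 to 9.68, 9.89 and 9.79 (-0.36, adjusted p 0.0164). The groups of Ern1 nearly touch at replicate 1 of each. Both of these calls were lost with array medians set equal (adjusted p 0.0647 and 0.0806) and on leaving out single arrays: for Ern1 replicates 2 and 3 of either group (0.0739 to 0.0909), for Eif2ak3 Smo2 replicate 1 and replicates 2 and 3 without Smo2 (0.0507 to 0.0533). The Ern1 call was also lost with replicate number as a block (0.0764), without the filter (0.0881) and by the methods' t-test, even unadjusted (p 0.0596). Atf6, the third sensor, differed by -0.062 and was not called. Of the 4 genes of ER-associated degradation, Herpud1 (0.35, from 9.85, 9.76 and 9.74 to 10.13, 10.11 and 10.17) and Edem1 (0.34, from 9.26, 9.36 and 9.29 to 9.70, 9.61 and 9.62) rose. The Herpud1 call was lost with all 22 arrays in 1 fit (limma, adjusted p 0.128). The ubiquitin ligase Syvn1 (HRD1, -0.60, from 10.42, 10.55 and 10.45 to 9.92, 9.84 and 9.85) and its partner Sel1l (-0.53, from 10.85, 10.91 and 10.91 to 10.30, 10.39 and 10.39) fell. Of the 5 bright probe sets of Sel1l, which differed by -0.53 to -0.11, 2 were called lower.

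**Figure D3:**
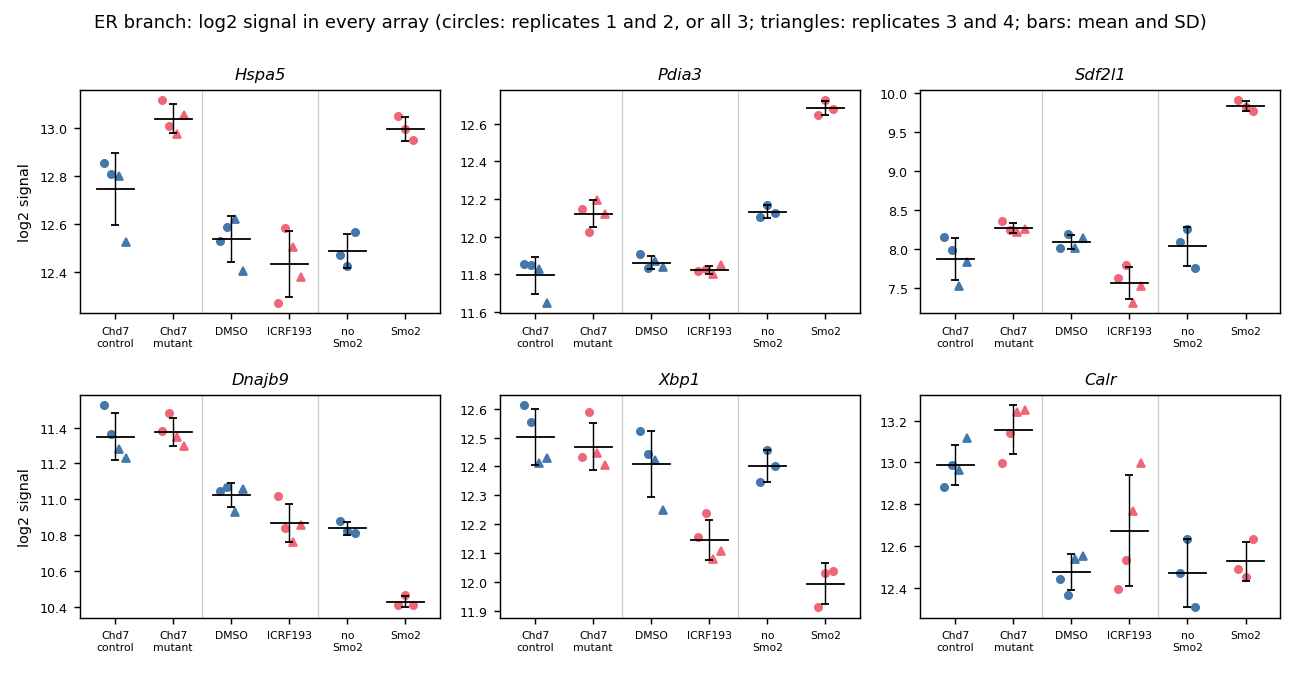
Log2 signal (y axis, scaled separately for each gene) of 6 ER branch genes on each of the 22 arrays, by group; symbols are as for the ATF4 branch, and bars give the mean and SD. Hspa5, Pdia3 and Sdf2l1 are higher with Smo2, Dnajb9 and Xbp1 are lower, and Hspa5 and Pdia3 are also higher on every Chd7 mutant array than on any control array.

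Cell type markers moved strongly in the same comparison. The dividing granule progenitor list (9 of 10 genes on the arrays, 8 of them bright) summed to 7846 to 8026 without Smo2 and 50912 to 50952 with it, 7 of its 8 tested genes rose and 1 fell, and the granule neuron sum fell from between 132033 and 133874 to between 85130 and 92828 (0 rose and 8 fell of 9). Astrocyte markers summed to 8734 to 9968 without and 5965 to 7015 with Smo2, and of 10 genes 3 rose (Sox9 by 1.94) and 7 fell. Fibroblast and pericyte markers summed to 836 to 845 without and 1006 to 1147 with Smo2. Microglia markers (1388 to 1925 against 700 to 985) and Purkinje cell and interneuron markers (3857 to 3956 against 1726 to 1880) were also lower with Smo2. The part of these shifts in the results on the stress genes was not tested.

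Genes of the same pathways outside the 37 give the context of the Smo2 values. Of 21 aminoacyl-tRNA synthetase and related genes 16 rose and none fell (median 0.55), led by Vars (1.59), Kars (1.17) and Tars (1.00). Of 22 other ATF4 targets 12 rose and 3 fell (median 0.36), led by the translation repressor Eif4ebp1 (2.80) and the amino acid transporters Slc1a5 (1.52) and Slc7a1 (1.33). Of 14 genes in a list for eIF2, its exchange factor and its kinases 9 rose and 1 fell (median 0.33). This list also held Ppp1r15b, Nck1 and Dnajc2. In it Eif2s1 was represented by the array symbol Eif2a, matched as a synonym and not checked further. Of 23 other ER folding genes 13 rose and 3 fell (median 0.24), with Pdia5 at 1.88, Fkbp7 at 1.74 and Prdx4 at 1.47 against Dnajb2 at -1.24. The other degradation and translocon genes did not lean one way, with 8 risers and 10 fallers of 25 (median -0.055), nor did 12 other ER stress regulators, with 4 and 4. Of 19 cytosolic and mitochondrial heat shock genes 10 rose, such as Hspe1 (0.99) and Hsph1 (0.98), while the inducible Hspa1a and Hspa1b fell (-1.49 and -1.31). Each count stands beside 29.7% of all genes higher and 39% lower.

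In the Chd7 mutant 1 chaperone rose, most others lay slightly above the control without passing the test, and no gene of the ATF4 branch was called. Of the 37 genes 1 rose and 0 fell (limma, adjusted p under 0.05; 5.07% of all genes rose and 3.83% fell, 8.89% in all). At an unadjusted p under 0.05, 10 were higher and 0 lower, 9 of them in the ER branch, which is 27.0% of the 37 where 26.1% of all genes passed that limit in either direction. With array medians set equal these counts were 5 and 2, and the share of all called genes that were higher went from 57.0% to 41.5%. The one called was Pdia3, a disulfide isomerase for glycoproteins, which read 11.85, 11.85, 11.82 and 11.65 on the control arrays and 12.15, 12.03, 12.20 and 12.12 on the mutant arrays (0.33, SE 0.070, 1.26-fold, adjusted p 0.0251). Its difference was 0.24 within replicates 1 and 2 (adjusted p 0.145) and 0.42 within replicates 3 and 4 (0.0511), and the call was lost with array medians set equal (0.23, adjusted p 0.177). It was also lost on leaving out control replicate 1, 3 or 4 or mutant replicate 1, 3 or 4 (adjusted p 0.0533 to 0.0635). Of the 2 bright probe sets of Pdia3, at 0.20 and 0.33, 1 was called, and their mean (0.26, adjusted p 0.144) did not pass.

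Of the 13 chaperones 12 had a positive difference, with a median of 0.17 against 0.0048 over all genes, and 8 had groups that did not overlap, where 19.6% of all genes did not overlap. Hspa5 read 12.86, 12.81, 12.80 and 12.53 on the control arrays and 13.12, 13.01, 12.98 and 13.05 on the mutant arrays (0.29, adjusted p 0.0658). Dnajc3 read 10.11, 9.96, 10.06 and 10.01 and then 10.26, 10.20, 10.34 and 10.47 (0.28, adjusted p 0.0521). Pdia4 (0.34, 0.0640), Pdia6 (0.30, 0.0655), Sdf2l1 (0.40, 0.0906), Canx (0.16, 0.128) and Manf (0.17, 0.159) likewise missed the threshold without overlap of their groups. Of the 3 bright probe sets of Canx, which differed by 0.11 to 0.37, 1 was called as higher. The 5 of Dnajc3 differed by -0.11 to 0.33, and none was called. Sdf2l1 read 8.16, 7.98, 7.53 and 7.83 on the control arrays and 8.36, 8.24, 8.22 and 8.26 on the mutant arrays. Within replicates 1 and 2 the differences of these 7 genes lay between 0.11 (Manf) and 0.30 (Pdia4), and within replicates 3 and 4 between 0.16 (Canx) and 0.56 (Sdf2l1). With the set of arrays as a block, which takes out what replicates 1 and 2 share against 3 and 4, all 8 passed, but 12.6% of all genes were then higher. With each set averaged to 1 sample, which leaves 2 against 2, no gene of all those tested passed in limma, and 2 of the 37 were higher at an unadjusted p under 0.05. Hsp90b1 was the 1 chaperone below 0 (-0.11, adjusted p 0.488). Xbp1 read 12.61, 12.55, 12.41 and 12.43 in controls and 12.43, 12.59, 12.45 and 12.41 in mutants, and these groups overlapped (-0.034, adjusted p 0.806).

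The ATF4 branch had a median difference of 0.11, with 12 of 16 genes above 0 and none called. Atf4 read 12.88, 12.92, 12.47 and 12.54 on the control arrays and 12.69, 12.72, 12.19 and 12.15 on the mutant arrays. Its difference of -0.27 did not pass (adjusted p 0.367). Replicates 1 and 2 were higher than 3 and 4 in both groups, and with the replicate number as a block it passed (adjusted p 0.0474; 5.15% of all genes were then lower). Slc7a11 read 7.86, 7.71, 7.79 and 7.87 and then 8.64, 8.79, 7.92 and 8.28, without overlap (0.60, adjusted p 0.0699). It passed with the set as a block (0.0274) and within replicates 1 and 2 (0.93, 0.0135), and it differed by 0.27 within replicates 3 and 4. Ddit3 read 9.53, 9.69, 9.56 and 9.40 in controls and 9.85, 10.06, 9.36 and 9.42 in mutants, with overlap (0.13, adjusted p 0.650). Phgdh read 10.11, 10.14, 10.29 and 10.31 in controls and 10.26, 10.09, 11.41 and 11.25 in mutants. Its mean difference of 0.54 was not called (adjusted p 0.289), and it was 0.046 within replicates 1 and 2 and 1.03 within replicates 3 and 4 (adjusted p 0.00707). The 2 high arrays, mutant replicates 3 and 4, also had the highest sums of the Chd7 groups for astrocyte, dividing progenitor (11400 and 10400) and fibroblast markers (12600 on both), whose part in the value was not tested.

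Several amino acid genes differed more between sets than between genotypes. Asns read 12.34, 12.41, 11.19 and 11.32 in controls and 12.23, 12.25, 11.32 and 11.25 in mutants, so that replicates 1 and 2 were higher by 1.12 and 0.96, while the mutant differed from the control by -0.053. Slc3a2 (0.76 and 0.51) and Slc7a5 (0.75 and 0.26) were also higher in replicates 1 and 2 of both groups, as was Atf4 (0.40 and 0.53). Phgdh was lower there, by -0.17 in controls and -1.16 in mutants. The labels give no account of the sets. The median size of the gap between sets was 0.16 and 0.15 for the 37 genes and 0.13 and 0.17 for all genes, in controls and mutants.

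Among the other lists, where 5.07% of all genes rose and 3.83% fell, 4 of 23 further ER folding genes rose in the mutant and none fell (Pdia5 0.78, Fkbp14 0.53, P4hb 0.29 and Erp44 0.25), as did Derl1 (0.22) among 25 degradation genes and Cebpb (0.47) and Eif4ebp1 (0.38) among 22 other ATF4 targets. Kars rose among 21 synthetase genes (0.24), Eif2s3x among 14 genes of the eIF2 list (0.25) and Hspb1 (0.85) and Hspe1 (0.40) among 19 heat shock genes, and none of 12 ER stress regulators was called. Beside these, the summed fibroblast and pericyte markers were 3342 to 6550 on control and 6253 to 12640 on mutant arrays, with Dcn and Pdgfrb called, the oligodendrocyte lineage sum was 4559 to 10938 and 13818 to 17596, and the dividing progenitor sum was 4939 to 6870 and 6493 to 11381. Granule neuron markers summed to 122383 to 124224 on control and 102232 to 116009 on mutant arrays, and microglia markers to 2888 to 5402 and 1165 to 4025, with all 6 tested microglia genes lower and none called. Their part in the chaperone values was not tested.

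With ICRF-193 the cystine importer Slc7a11 rose and the BiP cofactor Sdf2l1 fell. These were the 2 of 37 genes called, where 3.16% of all genes rose and 3.48% fell, 6.64% in all. The median difference was -0.0094 in the ATF4 branch and -0.067 in the ER branch, against 0.0083 over all genes. At an unadjusted p under 0.05, 2 were higher and 2 lower, 10.8% of the 37 where 19.3% of all genes passed in either direction. Slc7a11 rose, reading 7.44, 7.09, 7.41 and 7.74 with DMSO and 8.0, 8.06, 8.16 and 8.33 with ICRF-193 (0.72, SE 0.14, 1.64-fold, adjusted p 0.0185). Within replicates 1 and 2 it differed by 0.76 and within replicates 3 and 4 by 0.67, neither past the threshold (adjusted p 0.0819 and 0.143), and its dimmer probe set (0.28) was not called. The call was lost on leaving out DMSO replicate 1 or 3 or ICRF193 replicate 3 or 4 (adjusted p 0.0509 to 0.0547).

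Sdf2l1 fell, reading 8.01, 8.19, 8.01 and 8.14 with DMSO and 7.63, 7.79, 7.31 and 7.52 with ICRF-193 (-0.53, SE 0.11, 1.44-fold lower, adjusted p 0.0246). The groups did not overlap, as in 14.3% of all genes. Within the sets the difference was -0.39 and -0.66 (adjusted p 0.193 and 0.0961), and the call was lost on leaving out any 1 DMSO replicate or ICRF193 replicate 1 or 4 (0.0505 to 0.0708). Xbp1, the factor upstream of many chaperones, read 12.52, 12.44, 12.42 and 12.25 and then 12.16, 12.24, 12.08 and 12.11, again without overlap (-0.26, adjusted p 0.102). Ddit3 read 9.42, 9.59, 9.60 and 9.47 and then 9.41, 9.41, 9.30 and 9.41 (-0.14, adjusted p 0.359), also just without overlap. Hspa5 read 12.53, 12.59, 12.62 and 12.41 with DMSO and 12.27, 12.58, 12.50 and 12.38 with ICRF-193 (-0.10). Atf4 read 12.70, 12.73, 12.59 and 12.65 and then 12.87, 12.70, 12.45 and 12.49 (-0.043). Both overlapped between groups and were not called, Phgdh (0.016) was not called either, and the highest uncalled difference was that of Slc7a5 (0.46, adjusted p 0.182).

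ICRF-193 called few genes of the wider pathways: Ppp1r15b, the constitutive partner of the eIF2 phosphatase (-0.36), Ube2g2, a ubiquitin-conjugating enzyme of ER degradation (-0.45), and Nfyb, a subunit of the CCAAT-binding factor (-0.51), fell, and the death regulator Bcl2l11 (0.56) rose. None of 21 synthetase genes, 22 other ATF4 targets, 23 folding genes or 19 heat shock genes was called. Granule neuron markers summed to 118078 to 127928 with DMSO and 96384 to 104515 with ICRF-193, with 2 of 9 called lower. This list includes Reln, which the paper reports as lowered by ICRF-193. Purkinje cell and interneuron markers summed to 4970 to 6010 and 4020 to 4520 (1 of 4 fell), and dividing progenitor markers to 7138 to 11463 and 9322 to 14663 (of 8, 1 rose and 1 fell). No gene of the astrocyte, oligodendrocyte, microglia or fibroblast lists was called. The part of these shifts in the values was not tested.

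**Figure D4:**
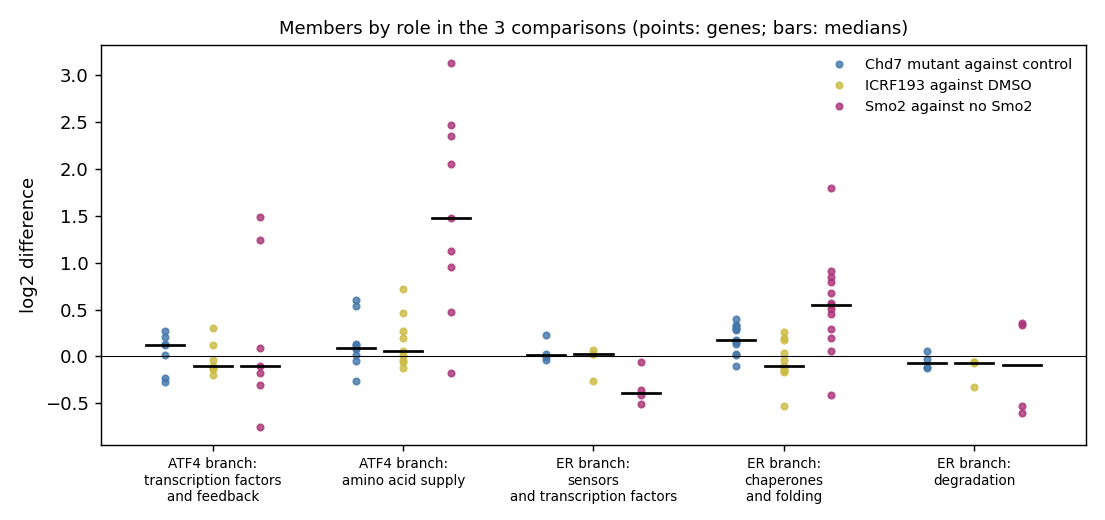
Log2 difference (y axis) of each gene (points) by role (x axis) in the 3 comparisons (colours), with the median of each role as a bar. Amino acid supply has its median at 1.48 and the chaperones at 0.55 with Smo2, and the next highest median is that of the chaperones in the Chd7 mutant, at 0.17.

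The 3 comparisons share no array, so their differences were tested against each other in 1 fit over all 22 arrays. This fit took every array as independent and used 1 spread per gene for all groups, although the Chd7 and ICRF-193 arrays split by set. For Chd7 mutant against control it called 13.6% of all genes, against 8.89% in the main fit. Differences between comparisons were not tested with each set averaged, so their p-values may be too small. The Chd7 difference was above the ICRF-193 difference for 5 genes, all chaperones, and below it for none (5.07% of all genes were higher and 3.99% lower, 9.06% in all). These were Sdf2l1 (0.92, SE 0.17, adjusted p 0.0018), Pdia6 (0.40, 0.0227), Hspa5 (0.39, 0.0289), Dnajc3 (0.39, 0.0198) and Pdia3 (0.37, adjusted p 0.0030). With array medians set equal 1 gene passed. No ATF4 branch gene passed in either direction, and Slc7a11, the gene that rose with ICRF-193, had a difference of 0.60 in the mutant and 0.72 with ICRF-193.

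The Smo2 difference was above the Chd7 difference for 9 ATF4 branch genes and 8 ER branch genes and below it for 2 and 6 (20.4% of all genes were higher and 27.2% lower, 47.6% in all). Phgdh led (2.59, SE 0.40), followed by Psat1 (2.34), Slc7a5 (2.32) and Mthfd2 (2.26). Sdf2l1 led the ER branch (1.40, SE 0.19). Hspa5, Hsp90b1, Canx, Dnajc3, Herpud1 and Psph rose with Smo2, but their Smo2 difference did not pass against their Chd7 difference. That does not show the differences to be equal. The lower ones were Ddit3 (-0.88), Slc7a11 (-0.78), Ern1, Sel1l, Syvn1, Dnajb9, Xbp1 and Eif2ak3. Slc7a11 is counted among the lower genes of both Smo2 tests although its Smo2 arrays and those without Smo2 lay below the filter value of 6.44, where a change may not be measured. Against ICRF-193 the Smo2 difference was above for 10 and 11 genes and below for 2 and 5 (22.8% and 27.9% of all genes, 50.7% in all), with Sdf2l1 at 2.32 and Pdia6 at 1.01 in the ER branch. With array medians set equal 0 ER branch genes were lower in either test.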

How the data were processed

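The members and the gene lists were chosen with earlier results of these data known. The authors deposited linear Affymetrix 430 2.0 intensities for 22 arrays, scaled to an equal trimmed mean; which software and summary method made them was not stated in the labels or methods read. Intensities were floored at 16, log2-transformed and quantile normalized, since array medians spanned 6.33 to 6.81. The brightest of a gene's probe sets stood for it (34958 of 45101 probe sets had 1 symbol, 932 several and 9211 none in the platform annotation), and 10771 of 18193 genes with a mean of at least 6.44 were kept. Each comparison was fitted by limma 3.58.1 (R 4.3.3) on its own arrays, without a block, with Benjamini-Hochberg adjustment over all genes; a gene was called at an adjusted p under 0.05. Differences between comparisons came from 1 fit over all arrays. The test was tried on simulated data, where it recovered 42% to 56% of log2 changes of 0.5 and 82% to 87% of changes of 1. The simulated arrays varied independently, without the sets of the Chd7 and ICRF-193 arrays. The trial therefore cannot show how the test fares where arrays share deviations. No 2 of 231 array pairs held identical values. Arrays give no depth, and their number limits the precision.

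No main fit used the replicate numbers as pairs, and the replicate number as a block was an alternative in each comparison. Deviations of arrays with the same number correlated at 0.39 to 0.42 in the Chd7 and 0.28 to 0.41 in the ICRF-193 comparison. With Smo2 they did not (-0.0067 to 0.035). Arrays of other numbers within a set correlated as well (0.38 to 0.44 and 0.30 to 0.35). All 37 members are accounted for. Values of every array are given for genes in the comparison that called them and for Atf4, Ddit3, Hspa5 and Xbp1 in each, and from other lists up to 4 called genes with the largest change were eligible to be named. The methods' t-test, blocks, filters, scalings, probe set rules and left-out arrays were the alternatives.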

Additional observations from a re-analysis of the deposited data

Results flagged for a closer look

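In 8 of 148 groups of 4 arrays 1 array lay far from the other 3 (log2 signal, by Dixon's ratio); chance flags about 1 in 20 groups. With ICRF-193, Atf3 read 7.70 on replicate 3 (nearest 8.01), Ddit3 9.30 on replicate 3 (nearest 9.41), Asns 11.81 on replicate 1 (nearest 11.28) and Phgdh 9.04 on replicate 2 (nearest 9.72). Shmt2 read 9.49 on Chd7 mutant replicate 2 (nearest 9.74), and Dnajb9 read 10.93 on DMSO replicate 3 (nearest 11.05). Chd7 control replicate 4 was low for Hspa5 (12.53, nearest 12.80) and Pdia3 (11.65, nearest 11.82). Without that array the Pdia3 difference was 0.28 (limma, adjusted p 0.0542).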

How the results depend on the processing

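No call turned its direction under any alternative. With Smo2 the 10 ATF4 branch and 13 ER branch genes higher stayed within 1.5 times those counts, and 1 ATF4 branch gene lower became 2 under the mean of bright probe sets and under the replicate block. The calls in the Chd7 and ICRF-193 comparisons were less steady. For the Chd7 ER branch, 1 gene higher became 0 with array medians set equal, the mean of bright probe sets, replicates 1 and 2 alone, or each set averaged to 1 sample (chosen after seeing the data), 2 on the deposited scale, 3 with the stricter filter, 5 with an intensity trend, 6 with all 22 arrays in 1 fit, and 8 with the set as a block or the methods' t-test unadjusted, which also gave 2 lower. For the Chd7 ATF4 branch, 0 higher became 1 with all arrays in 1 fit, the deposited scale, the t-test unadjusted, the set as a block and within either set, and 0 lower became 1 with the replicate block, the set as a block and within either set.

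With ICRF-193 the 1 ATF4 branch gene higher became 0 on the deposited scale, without the filter, with sets averaged, within either set and by the t-test after Benjamini-Hochberg adjustment. The stricter filter left out that gene, Slc7a11, so it was not tested there. The unadjusted t-test gave 1 ATF4 branch gene lower. The 1 ER branch gene lower became 0 with medians equal, without the filter, with sets averaged, within either set and by the adjusted t-test, 2 with all arrays in 1 fit or the set as a block, and 3 by the unadjusted t-test. With an intensity trend in the variance the count stayed at 1, but Sdf2l1 was lost (limma, adjusted p 0.0521) and Xbp1 passed (0.0335). For differences between comparisons, medians set equal gave 1 ER branch gene higher for Chd7 against ICRF-193, 0 ER branch genes lower for Smo2 against either, and 1 ATF4 branch gene lower for Smo2 against ICRF-193; without the filter 1 ATF4 branch gene was lower for Smo2 against Chd7. Pairing by replicate number as a block changed the calls of Atf4 (Chd7, adjusted p 0.0474), Atf3 (Smo2, 0.0194) and Ern1 (Smo2, 0.0764) and no other.

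Leaving out 1 array gave 0 to 1 ATF4 branch genes higher and 0 to 3 ER branch genes higher for Chd7, with 0 lower. It gave 0 to 1 ATF4 branch genes higher and 0 to 1 ER branch genes lower for ICRF-193. For Smo2 it gave 10 and 12 to 13 higher, and 1 and 4 to 6 lower, in the ATF4 and ER branches. Differences between comparisons ranged over 4 to 6 (Chd7 against ICRF-193, ER higher; ATF4 lower 0 to 1), 9 to 10 and 6 to 9 higher with 1 to 2 and 6 lower (Smo2 against Chd7), and 10 and 9 to 12 higher with 1 to 2 and 4 to 5 lower (Smo2 against ICRF-193). Where a group kept 2 arrays, its spread was pooled with the other group's.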
